A study of Homo sapiens with 8 samples.

Results

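The genes of the mitochondrial genome were examined in the mRNA-seq of TFAP2C KD in HCT116 cells, a human colorectal cancer cell line. They were chosen as the rows of the count table that lie on the mitochondrial chromosome, which gave 37 of the 42125 genes listed: 13 protein-coding genes, 2 rRNA genes and 22 tRNA genes. The other table of the series, from UBA2 KD, lists 0 mitochondrial genes and was not used here. The cells of every group stably carried a Tet-On shRNA against SAE2 (UBA2), so the controls hold it too, and no doxycycline is named for these samples. They were grown in DMEM with Tet System Approved FBS and transfected for 48 hrs with a control siRNA (control siRNA, 2 libraries) or with an siRNA against the coding region of TFAP2C (TFAP2C KD, 2 libraries). Whether the cells are a clone, and whether replicates are separate cultures, is not given in the sources used here, so p-values measure the spread between these libraries, which may be technical.

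The libraries held 20785035 to 24465109 counts, of which 2060094 to 2421927 fell on mitochondrial genes. In every library 8 of the 10 genes with the most counts were mitochondrial, with MT-ND4 at rank 1 and MT-RNR2 at rank 2. TFAP2C, the targeted gene, had 18.9 and 20.5 CPM (the count relative to the TMM-scaled library size) with control siRNA and 3.46 and 4.30 CPM in TFAP2C KD. The epithelial markers EPCAM (186 to 199 CPM), KRT8 (856 to 1090 CPM) and CDX2 (21.5 to 23.8 CPM) were present in every library, while VIL1 and CDX1 stayed at or below 0.144 CPM. Of the markers of other cell types, PTPRC, CD3E, PECAM1, COL1A2 and COL3A1 reached at most 0.292 CPM, VWF 1.93 CPM, ACTA2 15.5 CPM and COL1A1 47.5 CPM. The replicates of TFAP2C KD differed more from each other than those of control siRNA, with a chi-square per degree of freedom of 9.22 against 2.63 over genes.

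The mitochondrial genome is a small circle that is transcribed from both strands into long precursors. The precursors are cut, largely at the tRNAs that lie between the other genes, into mRNAs, rRNAs and tRNAs. Its mRNAs encode subunits of complexes I, III and IV of the respiratory chain and of the ATP synthase (complex V), its rRNAs build the mitochondrial ribosome, and its tRNAs read the codons there. Most mitochondrial mRNAs receive a poly(A) tail and the rRNAs a short one, whereas mature tRNAs end in CCA. Libraries made from poly(A) RNA, as with the mRNA kit used here, therefore do not sample the classes alike, nor need they sample every mRNA alike.

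Mitochondrial genes took nearly the same share of the counts in all libraries. The share was 9.79% (95% Wilson interval 9.78% to 9.80%) and 9.91% (9.90% to 9.92%) with control siRNA, and 9.90% (9.89% to 9.91%) and 9.96% (9.95% to 9.97%) in TFAP2C KD. These intervals cover counting error only. The means were 9.85% ± 0.0877 and 9.93% ± 0.0417 (SD, n = 2 each), a difference of 0.0802 percentage points, and the groups overlapped. In bulk RNA, a change in mitochondrial RNA per cell cannot be told apart from an opposite change in all other RNA. With 2 libraries against 2, an exact permutation test of a single value cannot go below p = 0.333, so none is given for shares.

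Protein-coding genes made up 80.6% and 80.7% of the mitochondrial counts with control siRNA, and 82.1% and 79.7% in TFAP2C KD. The rRNA genes took 19.4% and 19.3% with control siRNA, and 17.9% and 20.3% in TFAP2C KD. The replicates of TFAP2C KD thus lay on either side of the controls in both classes. The ratio of protein-coding to rRNA counts was 4.16 and 4.19 with control siRNA and 4.57 and 3.94 in TFAP2C KD. The tRNA genes took 0.0110% (95% Wilson interval 0.00972% to 0.0124%) and 0.00757% (0.00647% to 0.00886%) with control siRNA, and 0.0101% (0.00889% to 0.0114%) and 0.00978% (0.00857% to 0.0112%) in TFAP2C KD. That is 156 to 258 counts in a library, the fewest in replicate 2 of control siRNA.

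**Figure D1:**
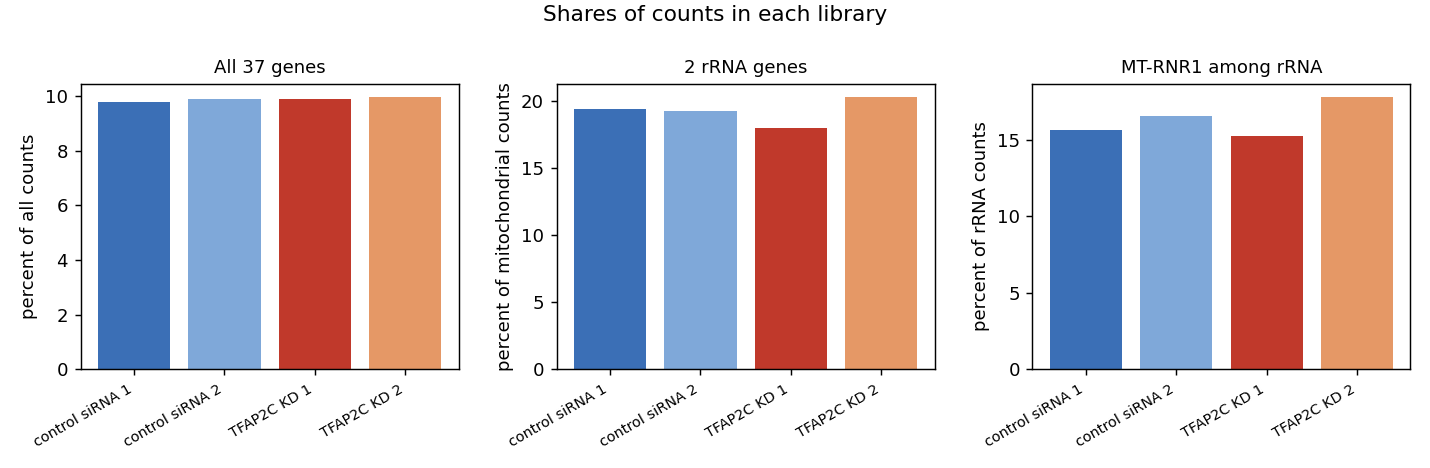
Bars give, for each of the 4 libraries, the percent of all counts on the 37 mitochondrial genes (left), the percent of mitochondrial counts on the 2 rRNA genes (middle) and the percent of rRNA counts on MT-RNR1 (right). The left bars lie between 9.79% and 9.96%, while in the other panels the TFAP2C KD libraries are the lowest and the highest.

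Of the 13 protein-coding genes, 6 end in an incomplete stop codon in the reference sequence, T or TA, which becomes UAA only once the poly(A) tail is added. Their last 30 bases are shown because they tie these mRNAs to the tail on which the libraries depend, with the incomplete stop in capitals. The sequences are those of GENCODE transcripts on GRCh37. All 37 of them equal the sequence of the mitochondrial chromosome there, and all 37 positions are the same in the deposited table and in RefSeq on GRCh38.
MT-ND1 (chrM:4233-4262, plus strand): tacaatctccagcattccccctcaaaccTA
MT-ND2 (chrM:5482-5511, plus strand): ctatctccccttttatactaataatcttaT
MT-CO3 (chrM:9961-9990, plus strand): tgtatgtctccatctattgatgagggtctT
MT-ND3 (chrM:10375-10404, plus strand): gactacaaaaaggattagactgaaccgaaT
MT-ND4 (chrM:12108-12137, plus strand): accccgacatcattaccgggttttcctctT
MT-CYB (chrM:15858-15887, plus strand): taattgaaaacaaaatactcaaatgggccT
These genes did not share a level: per kb of gene, MT-CO3 and MT-ND4 were the highest of the protein-coding genes with control siRNA and MT-ND1 the second lowest.

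Per length, the protein-coding genes spanned a 13.96-fold range in control siRNA. MT-CO3, a core subunit of cytochrome c oxidase (complex IV), had 12776 ± 337 CPM per kb (SD, n = 2), and MT-ND4, a membrane subunit of NADH dehydrogenase (complex I), had 12586 ± 48.4. Across the 4 libraries their ranges overlapped. MT-CO2 followed with 11195 ± 526 CPM per kb, then the large rRNA MT-RNR2 with 10151 ± 39.1, and neither overlapped its neighbours in this order. MT-CO1 (8242 ± 311), MT-ATP6 (8207 ± 277) and MT-CYB (8120 ± 38.2) formed a group with overlapping ranges. After a gap came MT-ND4L, MT-ND3, MT-ND5, MT-ATP8, the small rRNA MT-RNR1 and MT-ND2, from 4053 to 2935 CPM per kb, each overlapping the next. MT-ND1 (2456 ± 53.7 CPM per kb) and MT-ND6 (915 ± 218) were the lowest and did not overlap any other gene. MT-ND6, a complex I subunit, is the only protein-coding gene of the light strand, the strand that carries 9 of the 37 genes. All these levels describe what the libraries captured, and how well each mRNA was captured was not tested.

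**Figure D2:**
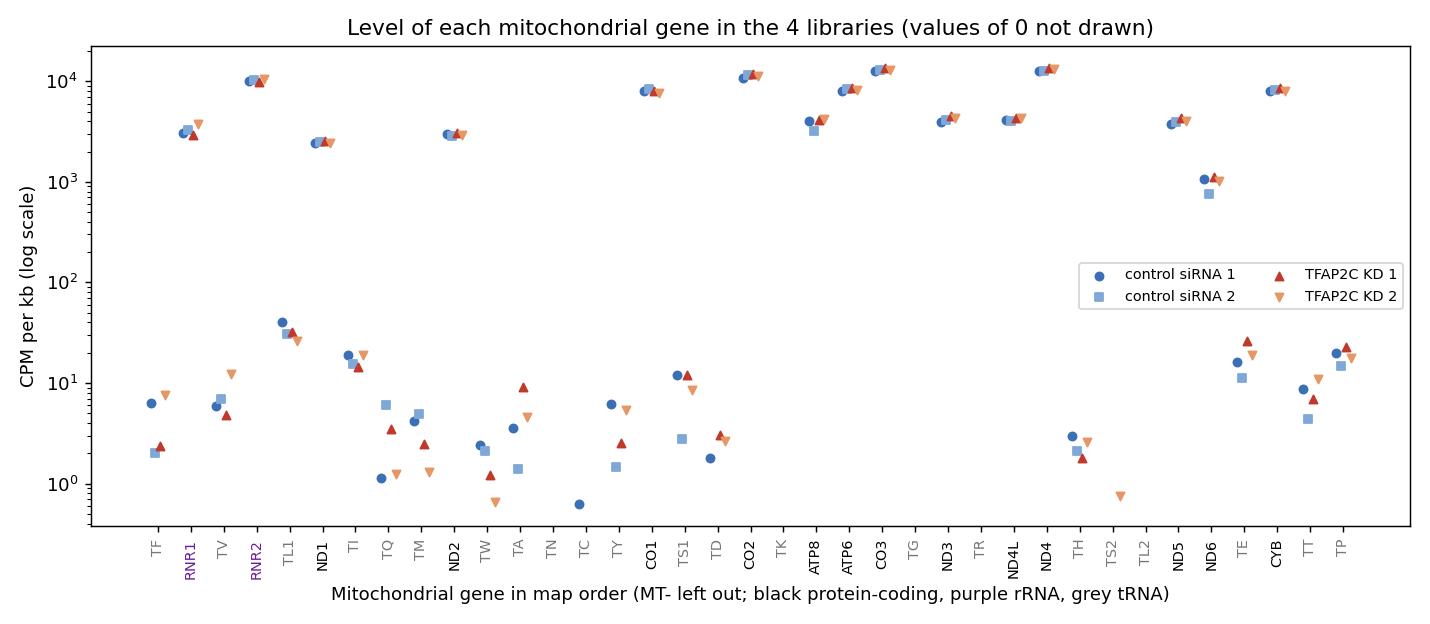
Points give the level of each of the 37 genes in CPM per kb on a log axis, in map order, for the 2 control siRNA and 2 TFAP2C KD libraries. The protein-coding and rRNA genes lie at 761 CPM per kb or higher in every library and the tRNA genes at 39.9 or lower, and values of 0 are not drawn.

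The order depends on what is counted as length. With 50 bases taken off each gene, 5 of the 13 protein-coding genes changed place. Reads of 51 bases can also match the nuclear genome, which holds old copies of mitochondrial DNA: of the 16519 windows of 51 bases on the mitochondrial chromosome, 23.4% had an exact copy in the nuclear chromosomes of GRCh37. Of these windows, 72.4% had a copy on chromosome 1. Copies covered 49.9% of the windows inside MT-CO1, 47.5% in MT-ATP6 and 43.2% in MT-ND2, but 1.47% in MT-CYB, 3.16% in MT-ND4 and 0 in MT-ND3 and MT-ND4L. How reads that match several places were handled is not given in the sources used here. Counted per window that touches 1 gene and has no nuclear copy, an alternative chosen after the data were seen, 9 of the 13 genes changed place, MT-ATP6 and MT-CO1 moved above MT-CO2 and MT-ND4, and MT-CO3 stayed the highest and MT-ND6 the lowest. The order of the levels was therefore not the same on every scale.

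Neighbouring genes also overlap, and reads in an overlap can be lost to both. MT-ATP8 and MT-ATP6, which encode subunits of the ATP synthase, share 46 bases of a common mRNA, and MT-ND4L and MT-ND4 share 7. The ends of MT-ATP8 and MT-ND4L are shown with the bases that also belong to MT-ATP6 and MT-ND4 in capitals. Each capital stretch opens with the ATG start codon of the following gene.
MT-ATP8 (chrM:8487-8572, plus strand): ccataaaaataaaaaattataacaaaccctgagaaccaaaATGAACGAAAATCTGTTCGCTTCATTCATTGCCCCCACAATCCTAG
MT-ND4L (chrM:10720-10766, plus strand): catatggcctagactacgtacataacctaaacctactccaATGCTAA
The ratio of MT-ND4 to MT-ND4L counts was steady, at 14.3 and 14.5 with control siRNA and 14.5 and 14.3 in TFAP2C KD. That of MT-ATP6 to MT-ATP8 was 6.49 and 8.60 with control siRNA and 6.78 and 6.44 in TFAP2C KD, so replicate 2 of control siRNA stood apart from the other libraries.

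The complex I subunits were compared between the groups as CPM in each library. MT-ND4 had 17296 and 17390 CPM with control siRNA and 18776 and 18146 in TFAP2C KD. MT-ND5 had 6757 and 7107 CPM with control siRNA and 7732 and 7308 in TFAP2C KD. In both of these membrane subunits the TFAP2C KD libraries lay above the controls. MT-ND3 had 1353 and 1435 CPM with control siRNA and 1556 and 1492 in TFAP2C KD, and MT-ND4L had 1211 and 1197 against 1293 and 1267. These short genes showed the same arrangement, with no overlap between the groups. Of all genes tested, 22.4% lay higher in TFAP2C KD without overlap. MT-ND1 had 2312 and 2384 CPM with control siRNA and 2424 and 2309 in TFAP2C KD, and MT-ND2 had 3125 and 2991 against 3184 and 3059. For this pair at the start of the coding part of the map the groups overlapped. MT-ND6 had 562 and 399 CPM with control siRNA and 591 and 531 in TFAP2C KD. Here replicate 2 of control siRNA was the lowest library, and the control replicates differed by more (0.49 on the log2 scale) than the groups did.

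None of these 7 complex I genes passed the test. Their log2 fold changes in TFAP2C KD were 0.09 for MT-ND4 (standard error 0.084, 95% interval -0.092 to 0.27, adjusted p = 0.693), 0.12 for MT-ND5 (standard error 0.079, 95% interval -0.055 to 0.29, adjusted p = 0.571) and 0.13 for MT-ND3 (standard error 0.070, 95% interval -0.024 to 0.28, adjusted p = 0.477, edgeR). MT-ND6 had the highest value of the protein-coding genes, 0.22, with a wide interval of -0.044 to 0.49 (adjusted p = 0.479, edgeR). MT-ND4L, MT-ND2 and MT-ND1 had values of 0.09, 0.03 and 0.01. Without replicate 1 of control siRNA, MT-ND6 had 0.49, and without replicate 2 of control siRNA it had -0.011.

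Cytochrome b, the MT-CYB product, is the subunit of complex III that the genome encodes. MT-CYB had 9234 and 9296 CPM with control siRNA and 9670.4 and 9146 in TFAP2C KD, and the groups overlapped. Of the catalytic core of complex IV, MT-CO1 had 12369.9 and 13048 CPM with control siRNA and 12246 and 11858 in TFAP2C KD. It was the only protein-coding gene with both TFAP2C KD libraries below both controls, as were 22.4% of all genes tested. MT-CO2 had 7403 and 7912 CPM with control siRNA and 8157 and 7779.8 in TFAP2C KD, and MT-CO3 had 9829 and 10203 against 10564 and 10142. Both overlapped between the groups. The log2 fold changes were 0.02 for MT-CYB, -0.077 for MT-CO1 (standard error 0.082, 95% interval -0.26 to 0.10, adjusted p = 0.739, edgeR), 0.06 for MT-CO2 and 0.05 for MT-CO3.

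In complex V, MT-ATP6, which forms part of the proton path, had 5456 and 5722 CPM with control siRNA and 5799 and 5617 in TFAP2C KD. MT-ATP8, a small subunit of the stalk side, had 841 and 665 CPM with control siRNA and 855 and 872 in TFAP2C KD. The low library was again replicate 2 of control siRNA, while the other three lay close together. The log2 fold change of MT-ATP8 was 0.20 (standard error 0.095, 95% interval -0.0091 to 0.40, adjusted p = 0.414, edgeR), and it was 0.38 without replicate 1 of control siRNA and 0.029 without replicate 2. For MT-ATP6 it was 0.03.

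Relative to the sum of the 13 protein-coding genes, the makeup differed by little more than 1 percentage point. Complex I genes took 41.6% ± 0.488 of these counts with control siRNA and 42.9% ± 0.0212 in TFAP2C KD (SD, n = 2 each), and complex IV genes took 38.6% ± 0.707 and 37.4% ± 0.0495. MT-CO1 took 16.1% ± 0.318 with control siRNA and 14.8% ± 0.0919 in TFAP2C KD, and MT-ND4 took 22.03% ± 0.311 and 22.7% ± 0.113. The groups did not overlap in either share, nor in those of MT-ND1 (lower in TFAP2C KD), MT-ND3, MT-ND4L and MT-ND5 (higher). In CPM, another scale than these shares, the groups did not overlap for 44.7% of all genes tested. Shares of a common sum depend on each other. With that sum used as library size, no mitochondrial gene passed the test, and the lowest adjusted p was 0.310 (edgeR), for MT-CO1 with a log2 fold change of -0.12.

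**Figure D3:**
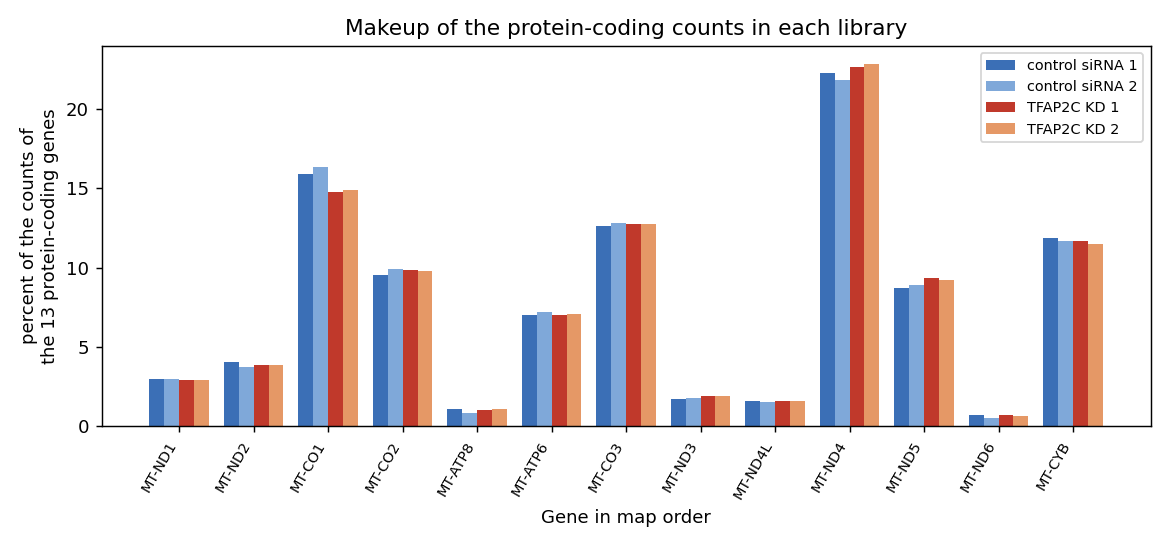
Bars give the percent of the counts of the 13 protein-coding genes that each gene took, in map order, for the 2 control siRNA and 2 TFAP2C KD libraries. MT-ND4 takes the most in every library, about 22% to 23%, and MT-CO1 is the gene whose bars differ most between the groups.

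The rRNA genes varied between the replicates of TFAP2C KD more than between the groups. MT-RNR1, the rRNA of the small ribosomal subunit, had 2929 and 3150 CPM with control siRNA and 2759.9 and 3596 in TFAP2C KD. MT-RNR2, that of the large subunit, had 15782 and 15868 CPM with control siRNA and 15360 and 16606 in TFAP2C KD. In both genes replicate 1 of TFAP2C KD was the lowest library and replicate 2 the highest. The TFAP2C KD replicates differed by 0.38 on the log2 scale for MT-RNR1, and the group difference was 0.06 (standard error 0.11, 95% interval -0.17 to 0.30, adjusted p = 0.840, edgeR). For MT-RNR2 the group difference was 0.01 (95% interval -0.17 to 0.20, adjusted p = 0.962, edgeR). MT-RNR2 exceeded MT-RNR1 by 3.19-fold per kb with control siRNA, and by 5.39, 5.04, 5.57 and 4.62-fold in counts in control siRNA replicates 1 and 2 and TFAP2C KD replicates 1 and 2. Since mature rRNAs carry only short tails, these levels describe what the libraries captured and not the rRNA in the cells.

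The table also lists nuclear copies of MT-RNR2 as genes, the MTRNR2L family, between which and MT-RNR2 the counting could have split reads. MTRNR2L1 had 694 and 535 counts with control siRNA and 652 and 658 in TFAP2C KD. The next by counts were MTRNR2L12, MTRNR2L3, MTRNR2L8 and MTRNR2L6, with 3 to 29 counts in a library. All 11 listed took 0.00289% ± 0.000213 of the counts with control siRNA and 0.00302% ± 0.000160 in TFAP2C KD (SD, n = 2 each), against the 330951 to 384574 counts of MT-RNR2.

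The tRNA genes were nearly absent from these libraries. Together they had 876 counts in the 4 libraries, 14 of the 22 had a count in every library, and the highest single value was 73. The genes of MT-TL1 (leucine), MT-TP (proline) and MT-TE (glutamate), which had the most counts, and of MT-TG (glycine), which had none, are shown to compare their sequences with their counts.
MT-TL1 (chrM:3230-3304, plus strand): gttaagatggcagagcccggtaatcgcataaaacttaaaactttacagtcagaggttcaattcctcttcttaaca
MT-TP (chrM:15956-16023, minus strand): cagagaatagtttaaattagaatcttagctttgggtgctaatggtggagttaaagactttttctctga
MT-TE (chrM:14674-14742, minus strand): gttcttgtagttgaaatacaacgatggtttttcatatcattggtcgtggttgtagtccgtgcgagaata
MT-TG (chrM:9991-10058, plus strand): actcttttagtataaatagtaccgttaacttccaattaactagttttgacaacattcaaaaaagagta
A read of 51 bases fits inside MT-TL1 in 25 places, inside MT-TP and MT-TG in 18 and inside MT-TE in 19. Windows that touch the gene and no other, on either strand, numbered 27 for MT-TL1, 70 for MT-TP, 23 for MT-TE and 18 for MT-TG. All 19 windows inside MT-TE had an exact nuclear copy, and 0 of those inside MT-TL1, MT-TP and MT-TG did. Among the tRNA genes without counts, all windows inside MT-TK and MT-TN had such a copy and none inside MT-TL2, so genes with and without copies were at 0.

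MT-TL1 had 73 and 48 counts with control siRNA and 58 and 44 in TFAP2C KD, and MT-TP had 33 and 21 against 37 and 27. Both overlapped between the groups. MT-TE had 27 and 16 counts with control siRNA and 43 and 29 in TFAP2C KD, a log2 fold change of 0.71, the highest of the mitochondrial genes tested when all libraries were used (standard error 0.30, adjusted p = 0.357, edgeR). Without replicate 1 of control siRNA it was 1.01, below MT-TS1 (1.86) and MT-TF (1.23). Without replicate 1 of TFAP2C KD it was 0.45, and MT-TF (0.79) was among the genes above it. MT-TE is on the light strand, opposite to precursors of the heavy strand, and the strand setting of the counting is not given in the sources used here, so reads of the strands cannot be told apart. Light-strand genes took 36.5% ± 2.65 of the tRNA counts with control siRNA and 45.3% ± 8.33 in TFAP2C KD (SD, n = 2 each). With all libraries, MT-TL1 had the lowest log2 fold change, -0.28 (standard error 0.21, adjusted p = 0.621, edgeR). The other 6 tRNA genes tested, MT-TF, MT-TV, MT-TI, MT-TS1, MT-TT and MT-TP, lay between -0.059 and 0.43, with standard errors from 0.28 to 0.66. A further 14 tRNA genes did not pass the filter on low counts. Of these, MT-TG, MT-TK, MT-TL2, MT-TN and MT-TR were at 0 in all libraries, where a count of 0 allows up to 0.123 to 0.144 CPM in a library (3 counts). MT-TC and MT-TS2 each had 1 count over the libraries, and MT-TQ, MT-TM, MT-TW, MT-TA, MT-TY, MT-TD and MT-TH had 10 to 30 summed over the libraries.

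Over all members, no mitochondrial gene passed the test between TFAP2C KD and control siRNA. Of the 37, 23 passed the filter on low counts. In edgeR's quasi-likelihood test 0 of the 23 were called (adjusted p under 0.05), where 0.74% of the 14991 genes tested in all were called, 0.26% higher and 0.48% lower, so the count of 0 is near the background. At an unadjusted p under 0.05 there was 1 member, MT-TE, beside 12.6% of all genes. The Wald test of DESeq2 also called 0 members, where it called 0.76% of all genes, with 1 member (4.35%, beside 5.46% of all genes) at an unadjusted p under 0.05. The groups did not overlap in CPM for 7 of the 23 (30.4%), 6 higher and 1 lower in TFAP2C KD, where the background was 44.7% in either direction and 22.4% in each.

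The differences were small and mostly above 0. Of the 13 protein-coding genes, 12 lay above 0 on the log2 scale, beside 49.1% of all genes tested, and their median was 0.057 beside -0.0038 over all genes. Scaled by the plain library size, which took the median of all genes to -0.0324, 10 of the 13 lay above 0. With their own sum as library size, which sets that sum equal between libraries and so cannot show a shared change, 8 did. Without control siRNA replicate 1, control siRNA replicate 2 or TFAP2C KD replicate 1 it was 10, and without TFAP2C KD replicate 2 it was 12. Genes cut from the same precursors are not separate observations, and these counts were not tested. For the 11 protein-coding genes other than MT-ND6 and MT-ATP8, the 95% intervals lay within -0.26 and 0.29. The count of 0 called changed when a TFAP2C KD library was left out, and the lone library was then assumed to vary like the controls. Without TFAP2C KD replicate 2, MT-ATP8, MT-ND3, MT-ND5 and MT-ND6 were called higher, 4 of 26 tested (15.4%), where 18.2% of all genes were called. Without TFAP2C KD replicate 1, MT-ATP8 and MT-RNR1 were called higher, 2 of 23 (8.7%), where 3.49% of all genes were. Without control siRNA replicate 1 or replicate 2, 0 members were called by edgeR, where 0.32% and 0.478% of all genes were. At an unadjusted p under 0.05 there were 5 of 24 members (20.8%, beside 4.96% of all genes) and 0 of 25 (beside 7.49%).

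**Figure D4:**
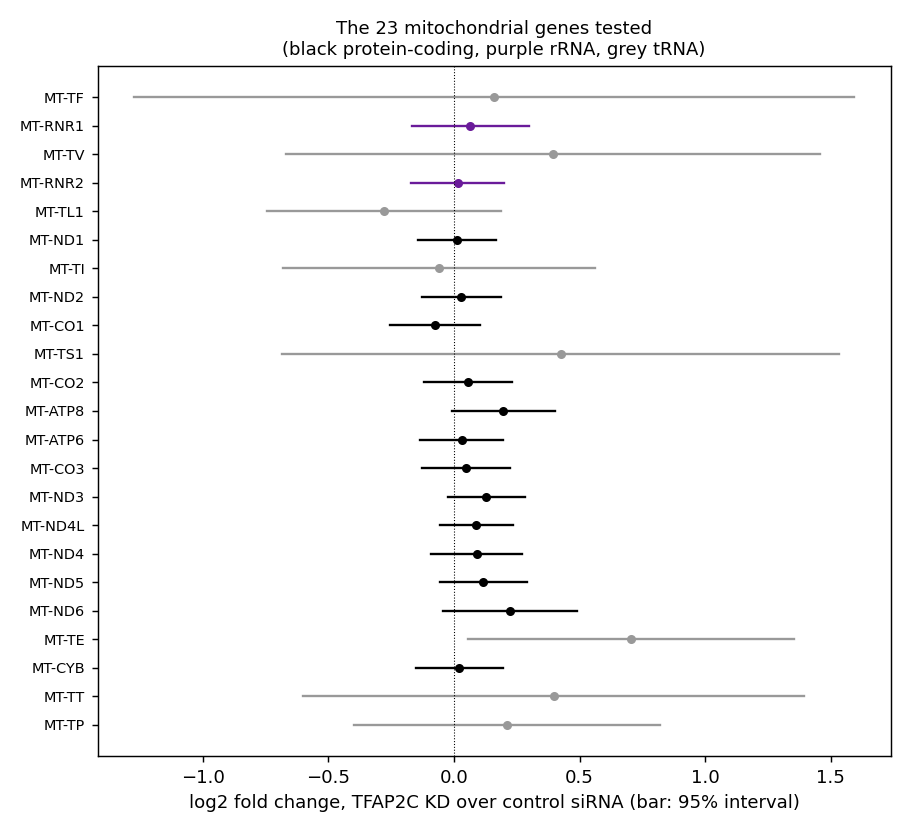
Points give the log2 fold change of TFAP2C KD over control siRNA for the 23 mitochondrial genes that passed the filter, in map order, and bars the 95% interval of the edgeR fit. All intervals but that of MT-TE include 0, and the tRNA genes have the widest bars.

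A list of 65 nuclear genes of mitochondrial genome expression was followed. It covered transcription, maintenance of the genome, RNA processing, modification and stability, and 7 nuclear regulators of respiratory genes. Of the 65, 63 were tested. None was called by edgeR or by DESeq2, beside 0.74% and 0.76% of all genes. At an unadjusted p under 0.05 there were 5 in edgeR, all higher (7.94%, beside 12.6% of all genes), and 1 in DESeq2 (1.59%, beside 5.46%). Their median log2 fold change was 0.027, with 34 above 0 and 29 below. The groups did not overlap for 31 of the 63 (49.2%), 22 of them higher, near the 44.7% and 22.4% of all genes. POLRMT, the mitochondrial RNA polymerase, had 122 and 126 CPM with control siRNA and 137 and 133 in TFAP2C KD (log2 fold change 0.12, adjusted p = 0.480, edgeR). TFAM, which packages the genome and opens its promoters, had 44.3 and 45.3 CPM with control siRNA and 37.3 and 45.6 in TFAP2C KD, with replicate 1 of TFAP2C KD apart from the rest (log2 fold change -0.11, adjusted p = 0.667, edgeR). The transcription factor TFB2M and the elongation factor TEFM had -0.0049 and -0.045. Of the 8 transcription genes listed, 2 lay above 0, with a median of -0.031.

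Of the factors that process mitochondrial RNA, ELAC2, which cuts the 3′ ends of tRNAs, had 144 and 138 CPM with control siRNA and 167 and 156 in TFAP2C KD (log2 fold change 0.20, standard error 0.070, adjusted p = 0.269, edgeR). TRMT10C, a subunit of the RNase P that cuts their 5′ ends, had -0.0014. LRPPRC, which holds mitochondrial mRNAs stable, had 346 and 341 CPM with control siRNA and 322 and 348 in TFAP2C KD (log2 fold change -0.036), and its partner SLIRP had 35.9 and 35.0 against 40.2 and 39.6 (log2 fold change 0.17, adjusted p = 0.401, edgeR). The poly(A) polymerase MTPAP had -0.018, and POLG, the DNA polymerase of the genome, had 0.12. The share of list genes called was larger than that of all genes without TFAP2C KD replicate 2 and smaller without TFAP2C KD replicate 1, each a fit with a lone TFAP2C KD library.

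The subunits of the same complexes that the nucleus encodes were set beside the mitochondrial ones. Of 76 such genes, 75 were tested; NDUFA9 is listed at 0 counts in every library. None was called in edgeR or DESeq2, beside 0.74% and 0.76% of all genes. At an unadjusted p under 0.05 there were 7 in edgeR, all higher (9.33%, a smaller share than the 12.6% of all genes), and 2 in DESeq2 (2.67%, beside 5.46%). In all 64 of 75 lay above 0, beside 49.1% of all genes, with a median log2 difference of 0.085. The groups did not overlap for 40 of the 75 (53.3%), 38 of them higher, beside 44.7% and 22.4% of all genes. Without a filter on low counts, ATP5MC1 was called, where 1.61% of all genes were. By complex, the nuclear and mitochondrial medians were 0.092 (36 genes) and 0.09 (7 genes) for complex I and 0.10 (11 genes) and 0.048 (3 genes) for complex IV. For complex III the nuclear median was 0.083 over 9 genes beside 0.022 for MT-CYB alone. For complex V it was 0.11 over 15 genes beside 0.03 for MT-ATP6 and 0.20 for MT-ATP8. Without replicate 2 of control siRNA these 2 had 0.056 and 0.029, a setting for which no nuclear median was taken. Complex II, which has no mitochondrial subunit, had a median of 0.015 over 4 genes. These differences between the sets were not tested. The lowest p-values were those of ATP5MC1 (complex V, log2 fold change 0.29, standard error 0.082, adjusted p = 0.170), COX8A (complex IV, 0.24, standard error 0.072, adjusted p = 0.196) and NDUFV3 (complex I, 0.19, standard error 0.078, adjusted p = 0.347, edgeR). The share of nuclear subunits called lay above that of all genes without TFAP2C KD replicate 2 and below it without TFAP2C KD replicate 1. In these fits the lone TFAP2C KD library gives no spread of its own.

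**Figure D5:**
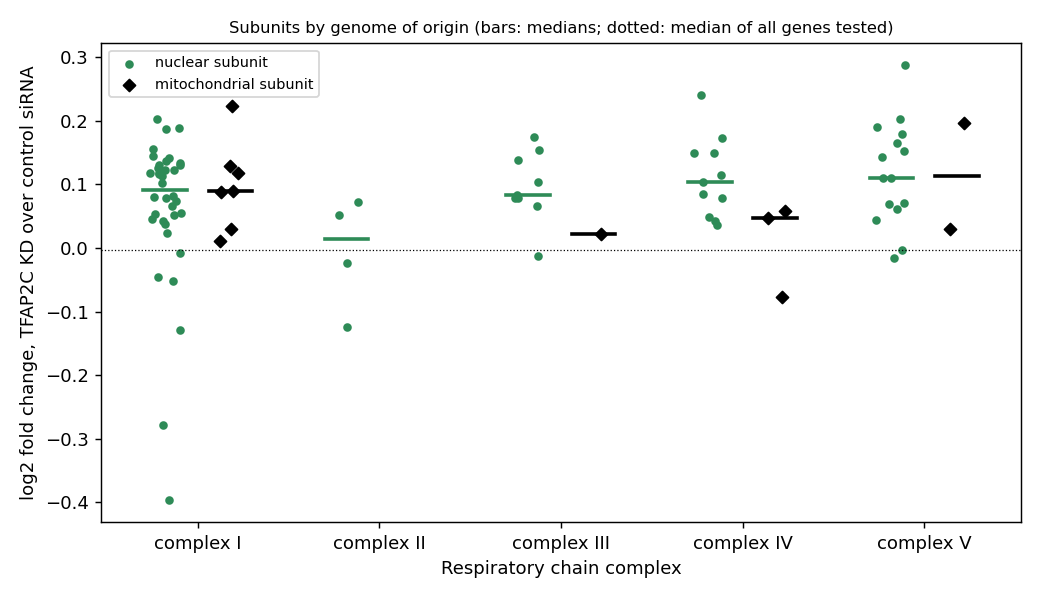
Points give the log2 fold change of TFAP2C KD over control siRNA for nuclear (circles) and mitochondrial (diamonds) subunits of each complex, with bars at the medians and a dotted line at the median of all genes tested (-0.0038). Most subunits of complexes I, III, IV and V from either genome lie slightly above the line, and none was called.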

How the data were processed

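The authors aligned single-end reads of 51 bases with TopHat2 and counted them per gene with HTSeq 0.9.1 (per the labels), and deposited raw counts without normalization. The methods name hg19 and RefSeq genes, but gene positions in the table match GRCh38 and the gene types are Ensembl's. The strand and multiple-match settings are not given in the sources used here. Low counts were removed by filterByExpr, libraries were scaled by TMM, and groups were compared in edgeR 4.0.16 (R 4.3.3) by the quasi-likelihood test over all genes with Benjamini-Hochberg adjustment (two-sided, threshold 0.05). CPM per kb divides by gene length. Shares carry 95% Wilson intervals. The biological coefficient of variation was 6.28%. The code of the edgeR fit was tested on counts simulated with the same spread in both groups, unlike these libraries.

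The members and lists were chosen with earlier results of these data known. Values in every library were given for the rRNA and protein-coding genes and the 3 tRNA genes with the most counts. Others were named if called or, among members, at the highest or lowest fold change, with 10 genes of mitochondrial genome expression and, as none was called, the 3 nuclear subunits with the lowest p. MT-TG was shown after its counts were seen, and so were genes named beside ratios or at 0. Alternatives were DESeq2 1.42.0 (size factors and Wald test), library size only, scaling from nuclear genes or mitochondrial protein-coding counts, other filters, the replicate number as a block and each library left out. Exact 51-base copies were searched in both strands of the nuclear GRCh37 genome.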

Additional observations from a re-analysis of the deposited data

How the results depend on the processing

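No mitochondrial gene was called under any change of scaling, filter, test or block; with each library left out, 0 to 4 were. All genes called numbered 398 without a filter on low counts, 172 with the replicate block and 49 to 2825 with each library left out. The nuclear genes of mitochondrial genome expression called ranged from 0 to 18 with each library left out. The nuclear subunits called were 1 without a filter (ATP5MC1) and 0 to 28 with each library left out. The median log2 fold change of the 13 protein-coding genes was 0.014 with their own sum as library size, which fixes that sum. Same-numbered libraries deviated with a correlation of -0.184, which does not show whether any libraries were handled together. Crossed numbers as a block, added after the data were seen, gave 467 called genes in all (3.12%) and 2 nuclear subunits (2.67% of 75). TFAP2C was called lower under every alternative run for it, and the difference in the mitochondrial share was 0.0181 to 0.142 percentage points with each library left out. The cause of these shifts was not tested. Low tRNA counts, the 2 libraries per group and the unlike TFAP2C KD replicates limit what could be detected.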
